A study of Caenorhabditis elegans with 2 samples.

Results

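The zinc finger protein LSY-2 is known for its part in the left-right asymmetry of the ASE taste neurons of Caenorhabditis elegans, and its gene lies on chromosome X. Its occupancy on chromosome X was described from the deposited chromatin immunoprecipitation (ChIP-seq) peak lists. The X peaks were all lines of the optimal peak list on build ce11 that carry chromosome X, 270 of 1563 peaks. The other 1293 peaks lay on chromosomes I to V and served for comparison.

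Both samples were whole L4 larvae of pooled sexes from strain OP240, whose animals carry the mutation unc-119(ed3) on chromosome III and the insertion wgIs240 with eGFP-tagged lsy-2. There was 1 group with 2 biological replicates, no second genotype, treatment or time, and the tagged copy is common to both. The labels name lsy-2 as the antibody target. The signal of a peak is the authors' own value and is set within its own list, so it served only to order and describe peaks. The optimal list comes from both replicates pooled and filtered for reproducibility, and each replicate also has its own list of candidates. Read depth is unknown. Whole larvae mix all tissues, so a peak in few cells and weak occupancy in many cannot be told apart.

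In C. elegans, hermaphrodites have a pair of X chromosomes and males a single one. A dosage compensation complex that contains a condensin lowers transcription from both X chromosomes of hermaphrodites. The complex is recruited to X at rex sites, which carry an element named MEX whose core letters are GCGCAGGG. X is also known for wider spacing of genes, few genes used by the germ line and many tRNA genes.

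The sequences below reach 50 bp to either side of X summits and are read 5′ to 3′ on the + strand of WBcel235 (build ce11) from RefSeq. The first 11 are the X windows that hold the letters GCGCAGGG, given from the highest signal down and shown because 8 of them are among the 25 strongest X peaks. Capitals mark GCGCAGGG or its reverse complement CCCTGCGC. Summit windows have this length throughout. The gene named is that of the nearest protein-coding start.
W02H3.3 (chrX:11094170-11094270): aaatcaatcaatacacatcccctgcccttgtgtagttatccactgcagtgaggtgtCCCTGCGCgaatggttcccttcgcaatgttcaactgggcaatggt
F20B6.9 (chrX:4209217-4209317): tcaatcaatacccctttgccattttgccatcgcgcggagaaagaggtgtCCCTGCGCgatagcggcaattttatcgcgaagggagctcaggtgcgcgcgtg
nspc-17 (chrX:14525855-14525955): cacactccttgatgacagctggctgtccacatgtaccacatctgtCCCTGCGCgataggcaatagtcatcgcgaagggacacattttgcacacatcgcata
xol-1 (chrX:8036384-8036484): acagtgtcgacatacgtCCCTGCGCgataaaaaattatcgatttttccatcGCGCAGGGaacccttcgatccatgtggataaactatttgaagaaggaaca
cest-16 (chrX:6296523-6296623): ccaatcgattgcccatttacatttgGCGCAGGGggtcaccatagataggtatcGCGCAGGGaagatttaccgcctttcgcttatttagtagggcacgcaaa
Y41G9A.17 (chrX:2997053-2997153): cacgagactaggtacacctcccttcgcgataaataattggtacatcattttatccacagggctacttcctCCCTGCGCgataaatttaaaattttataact
gtr-1 (chrX:806629-806729): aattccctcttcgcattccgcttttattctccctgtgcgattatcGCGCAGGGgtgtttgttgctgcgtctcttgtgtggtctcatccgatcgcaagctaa
ins-39 (chrX:1345004-1345104): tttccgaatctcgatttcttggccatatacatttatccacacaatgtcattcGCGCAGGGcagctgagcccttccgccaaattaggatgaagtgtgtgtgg
T24D8.6 (chrX:2364879-2364979): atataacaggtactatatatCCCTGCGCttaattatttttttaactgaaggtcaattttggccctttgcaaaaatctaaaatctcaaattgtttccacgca
col-185 (chrX:13514524-13514624): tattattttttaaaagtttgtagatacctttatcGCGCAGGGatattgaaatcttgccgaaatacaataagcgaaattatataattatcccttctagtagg
R04E5.9 (chrX:8811077-8811177): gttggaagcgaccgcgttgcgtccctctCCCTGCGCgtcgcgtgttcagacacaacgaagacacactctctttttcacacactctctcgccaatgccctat
The windows at xol-1 and cest-16 each held 2 copies of the letters, and the other 9 held 1 copy.

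The strongest X peak and the strongest X peak with GAGAGA follow for contrast, since neither window holds GCGCAGGG. Capitals mark CTGCGT, the reverse complement of ACGCAG, in the first and GAGAGA in the second.
serp-1.1 (chrX:15841227-15841327): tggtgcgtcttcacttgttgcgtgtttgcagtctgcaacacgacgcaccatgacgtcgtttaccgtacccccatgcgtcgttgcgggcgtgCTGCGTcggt
ZK899.6 (chrX:9465830-9465930): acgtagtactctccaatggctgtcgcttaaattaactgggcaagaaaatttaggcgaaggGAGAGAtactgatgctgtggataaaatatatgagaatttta

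The letters GCGCAGGG, searched on both strands, occurred in 11 of 270 X summit windows (4.07%, 95% exact interval 2.05 to 7.17%). They occurred in 1 of 1293 autosomal windows (0.0773%), at mpc-1 on chromosome III. The difference was 4.0 percentage points (two-sided Fisher's exact test, p = 3.50e-08, adjusted p = 5.84e-08 over 5 tests that were added after the counts were seen). In windows of the same length centred 500 bp to either side of the X summits, 1 of 540 held the letters. Of all 4195 X candidates of the pooled list, 19 windows held them (0.453%), against 10 of 17840 autosomal candidates (0.0561%). Peaks are regions of one list and not replicates, so every Fisher p here covers counting only.

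The peaks with GCGCAGGG were among the strongest of X. Ordered by signal within X, 8 of the 25 strongest peaks held the letters, 3 of the next 110 did, and none of the 135 weakest. Of the 25 strongest autosomal peaks, none did. With at most 1 mismatch allowed, 13 of the 25 strongest X windows matched, against 1 of the 25 strongest autosomal windows. Among the 135 weakest X windows 9 matched in this looser way (6.67%), close to the 6.81% of all autosomal windows. A match is a description of the letters at a summit. Whether the dosage compensation complex lies at these summits was not tested.

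**Figure D1:**
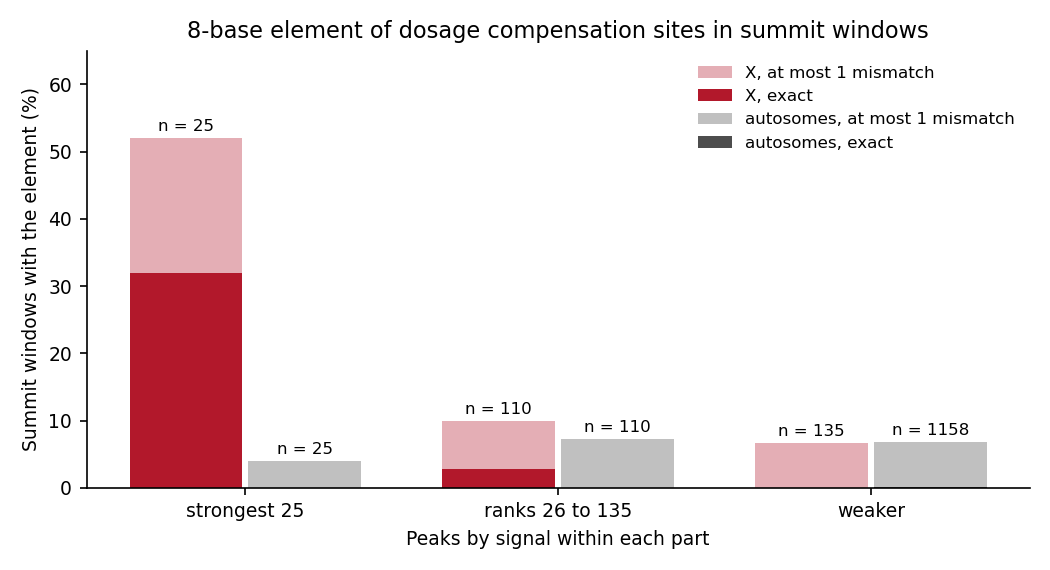
Share of summit windows (vertical axis, %) that hold the 8-base MEX core exactly (dark) or with at most 1 mismatch (pale), for peaks ordered by signal within X (red) and within the autosomes (grey). Among the 25 strongest peaks, 13 X windows and 1 autosomal window matched with at most 1 mismatch, and the X share fell to 6.67% in the weakest 135.

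The 3 strongest of the 11 lay away from any protein-coding start. The peak between W04G3.11 and W02H3.3, a pair of genes that end towards each other, had a signal of 709.5 in the optimal list, 317 in replicate 1 and 399 in replicate 2. The peak between F20B6.9 and hpk-1, which encodes a homeodomain-interacting protein kinase, had 588, 295 and 301 in the same order. The peak between nspc-17 and nspc-18, of a nematode-specific peptide family, had 566, 265 and 302. All of them stood within the first 52 candidates of either replicate.

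The peak nearest xol-1 had an optimal signal of 527, with 212 in replicate 1 and 306 in replicate 2, and ranked 6 on X. xol-1 (WBGene00006962, chromosome X, 8041313 to 8044409) is the switch gene that sets male fate and turns dosage compensation off. The summit lay 4879 bp upstream of its start, in intergenic sequence between C34D10.1 and xol-1. No candidate summit of either replicate or of the pooled list lay within 500 bp of the xol-1 start itself, so the gene counts as not bound by the start rule.

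A pair of the 11 peaks lay in introns. The peak with an optimal signal of 491 lay in an intron of mom-1, which encodes a Porcupine-type enzyme of Wnt secretion, although the nearest start was that of cest-16, 3369 bp away. It had 221 in replicate 1 and 269.6 in replicate 2. The peak in an intron of Y41G9A.17 had 436 in the optimal list, 179.9 in replicate 1 and 246 in replicate 2.

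The peak past the 3′ end of gtr-1 had an optimal signal of 371, with 190.2 in replicate 1 and 183 in replicate 2. The peak 633 bp upstream of the insulin-like peptide gene ins-39 had 328, 135 and 195 in the same order. The remaining 3 were weaker. The peak between the ligand-gated channel gene lgc-40 and T24D8.6 had 211, the one between the collagen gene col-185 and the cyclin-dependent kinase gene cdk-4 had 139.8, and the one at the start of R04E5.9 had 119. In replicate 1 the col-185 peak was weak, at rank 963, whereas in replicate 2 it ranked 278. The peak at R04E5.9 was the 1 of the 11 within 500 bp of a protein-coding start.

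Read from the genome instead of from the peaks, GCGCAGGG occurs 81 times on X and 233 times on the autosomes, which is 4.57 and 2.82 times per Mb. On X, 20 of the 81 occurrences lay whole within an optimal peak (24.7%, 95% exact interval 15.8 to 35.5%). On the autosomes 4 of 233 did (1.72%, 0.470 to 4.34%). Among the 1563 strongest candidates of each replicate alone, the X count was 18 in replicate 1 and 21 in replicate 2, and the autosomal count 4 and 5. The remaining X occurrences lay outside the optimal peaks, and 37 of the 81 lay within some pooled candidate.

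The highest signals on X belonged to a pair of start peaks without the element. The peak 295 bp upstream of serp-1.1 (WBGene00010337) had an optimal signal of 2700.2, with 1278 in replicate 1 and 1423 in replicate 2, and ranked 6 over the genome in all 3 lists. The peak 354 bp upstream of rpl-11.2 (WBGene00004423, chromosome X, 2241738 to 2242618), a gene of the large ribosomal subunit, had 1065, 486 and 586. From there the X signals dropped to 709.5, and the peak in place 25, at hsp-3, had 252.

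Of the 25 strongest X peaks, 7 lay within 500 bp of a protein-coding start and 18 did not. The 18 comprised 15 in intergenic sequence, 2 in introns and 1 in a coding exon. Of the 25 strongest autosomal peaks, 23 lay at starts and 2 in intergenic sequence. Besides serp-1.1 and rpl-11.2, the start peaks were at glit-1, which encodes a gliotactin homologue (407), trap-2 of the translocon-associated protein complex (316), puf-9, a Pumilio-family RNA-binding protein (309.6), T14G11.1 (287) and hsp-3, an endoplasmic reticulum Hsp70 chaperone. All 7 summits lay upstream of the nearest start, by 92 to 354 bp. The glit-1 peak also lay 346 bp upstream of dnj-14, and the trap-2 peak 343 bp upstream of ile-2, so each is at the starts of 2 genes.

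The other strong peaks away from starts, named by the nearest start, were at F55G7.5 (501), F22H10.2 (427), K02D3.1 (412), ZK899.6 (369.5), F19H6.5 (349), C41A3.2 (337), T27A8.7 (332), F56C3.1 (307), fbxb-58 (298) and C30E1.4 (253). Their distances ran from 1008 bp at fbxb-58 to 15192 bp at C41A3.2. Several lay between genes that end towards each other, as 7 of the 25 strongest X peaks did and none of the 25 strongest autosomal peaks. All 25 X peaks stood within the first 166 candidates of replicate 1 and the first 162 of replicate 2.

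**Figure D2:**
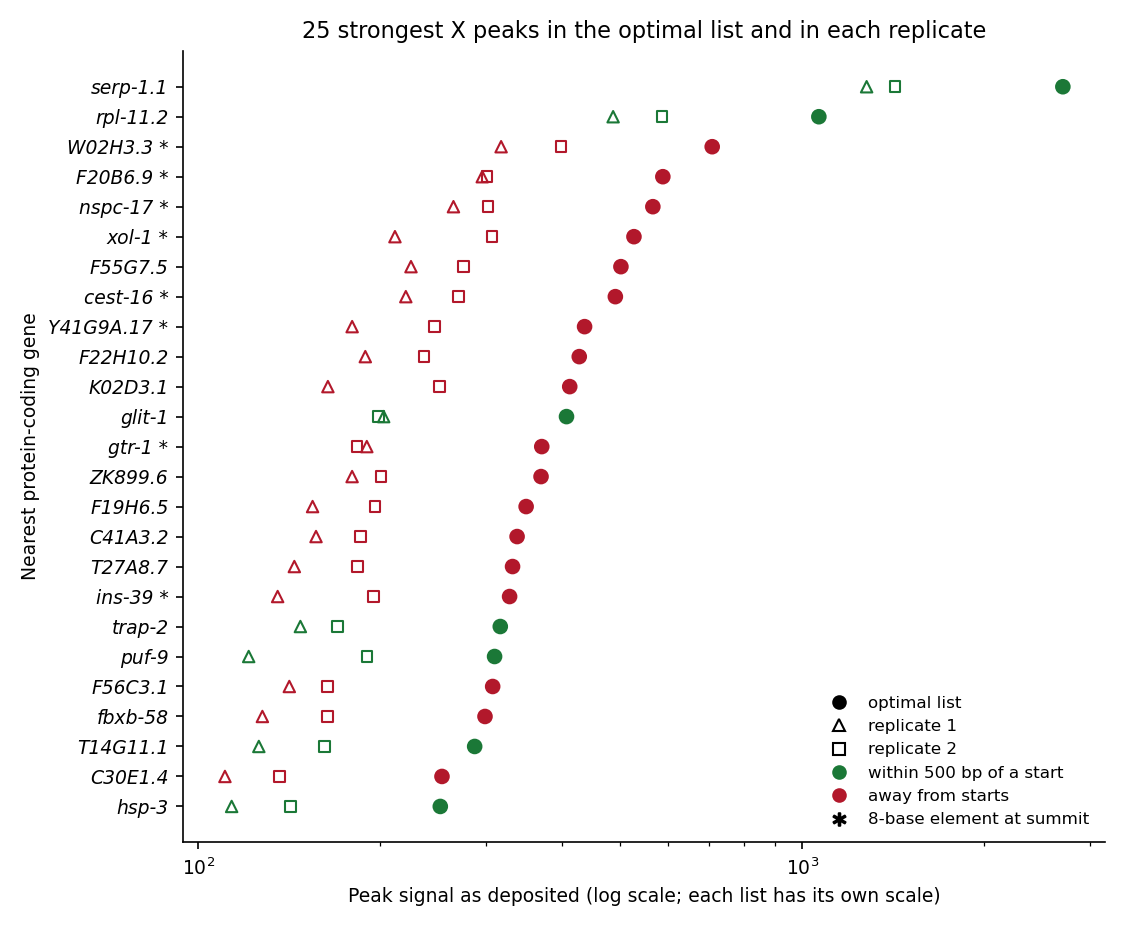
Deposited signal (log axis) of the 25 strongest X peaks in the optimal list (filled circles) and of the overlapping candidate in replicate 1 (triangles) and replicate 2 (squares), named by nearest protein-coding gene. Green marks the 7 peaks within 500 bp of a start, red the 18 away from starts, and an asterisk the 8 peaks whose summit window holds the 8-base element.

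X peaks lay at protein-coding starts less often than autosomal peaks. A summit fell within 500 bp of an annotated protein-coding transcript start for 103 of 270 X peaks (38.1%, 95% exact interval 32.3 to 44.2%) and for 678 of 1293 autosomal peaks (52.4%, 49.7 to 55.2%). The difference was -14.3 percentage points (Fisher's exact test, adjusted p = 0.000161 over the 8 planned differences). X had the lowest share of the 6 chromosomes, and the autosomes ranged from 49.8% on III to 57.6% on I. The sequence differs in the same direction, since 18.8% of X and 24.1% of autosomal bases lie within 500 bp of such a start. Of pooled candidates, 25.3% on X and 32.5% on the autosomes lay at starts.

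Peaks in intergenic sequence were more frequent on X. They were 105 of 270 on X (38.9%, 33.0 to 45.0%) and 337 of 1293 on the autosomes (26.1%, 23.7 to 28.5%), a difference of 12.8 percentage points (Fisher's exact test, adjusted p = 0.000161). Intergenic sequence by the same definition is 34.5% of X and 24.3% of the autosomes. Introns held 38 X peaks (14.1%, 10.2 to 18.8%) and 13.7% of autosomal peaks (11.9 to 15.7%), a difference of 0.385 percentage points that did not pass (Fisher's exact test, adjusted p = 0.846). Noncoding genes or pseudogenes held 22 X peaks (8.15%) and 45 autosomal peaks (3.48%), which was not tested. Coding exons held 2 X peaks and 14 autosomal peaks. None of 270 lay in another exon of a protein-coding gene (exact interval up to 1.36%), against 3.25% of autosomal peaks.

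**Figure D3:**
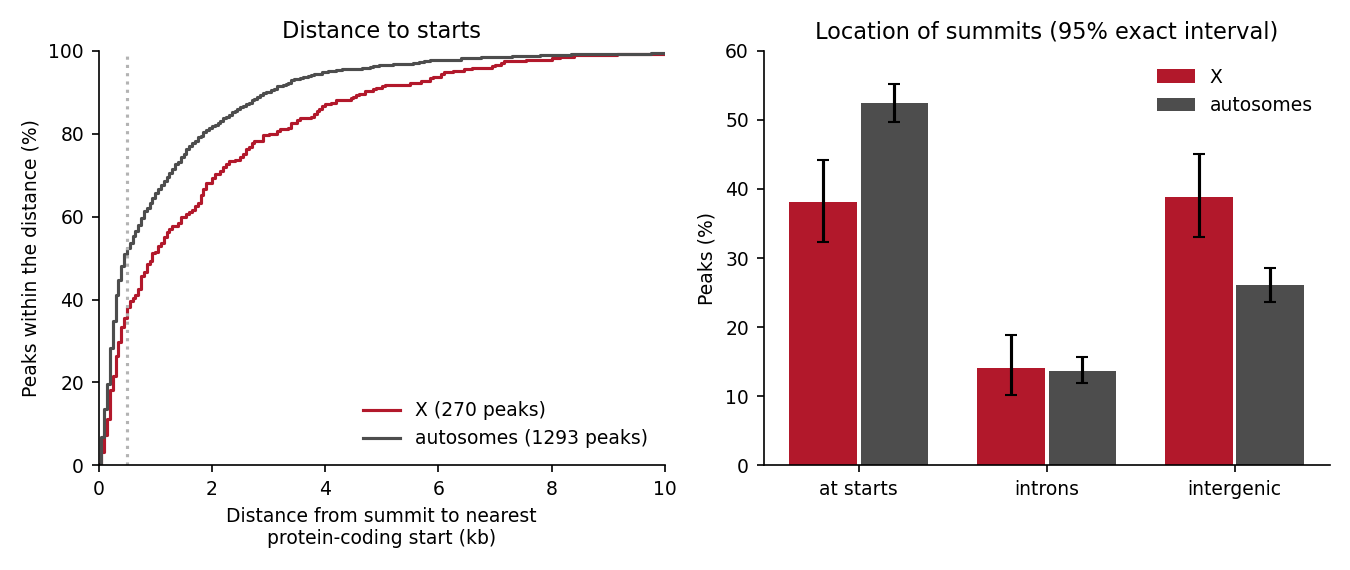
Left, the cumulative share of summits (vertical axis, %) within a given distance in kb of the nearest protein-coding start for 270 X peaks (red) and 1293 autosomal peaks (grey), with 500 bp dotted. Right, the share of summits at starts, in introns and in intergenic sequence, with 95% exact binomial intervals, where X is lower at starts (38.1% against 52.4%) and higher between genes (38.9% against 26.1%).

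The median distance from an X summit to the nearest start was 917.5 bp, with quartiles at 286 and 2544 bp. On the autosomes it was 427 bp, with quartiles at 178 and 1494 bp. Distances over 5 kb were found for 23 X peaks (8.52%) and 45 autosomal peaks (3.48%). The gap between neighbouring protein-coding genes has a median of 1.79 kb on X and 0.818 kb on the autosomes, and the part of this spacing in the distances was not tested. Between genes that end towards each other lay 27 X peaks (10%) and 31 autosomal peaks (2.40%). The spaces around these peaks had a median length of 6.66 kb on X and 2.005 kb on the autosomes. The share of all sequence or candidates in such spaces was not counted, and the difference was not tested.

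At the starts themselves, X peaks resembled autosomal ones in place. Their summits had a median distance of 204 bp, against 186 bp, and 95 of the 103 (92.2%) lay at or upstream of the nearest start, against 88.8%. They differed in how many genes shared a peak. Only 6 of 103 X start peaks (5.83%, 2.17 to 12.2%) lay within 500 bp of the starts of 2 or more genes, against 202 of 678 on the autosomes (29.8%, 26.4 to 33.4%). This test was also added after the counts were seen (Fisher's exact test, adjusted p = 4.07e-08). Starts within 250 bp gave a difference of -12.4 in place of -24.0 percentage points. How often the starts of different genes lie this close over all genes was not counted. Gaps between neighbouring genes have a median of 1.79 kb on X and 0.818 kb on the autosomes, and the part of this spacing in the difference was not tested.

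Of the 3 X peaks farthest from any protein-coding start, the first was inside a coding exon of pks-1, which encodes a polyketide synthase, 15192 bp from the start of C41A3.2, with a signal of 337 and ranks 107 and 105 in replicates 1 and 2. The other two lay 11217 and 9132 bp upstream of W05H9.4, with signals of 89.5 and 60.6. The weaker of them ranked 907 in replicate 1 and 3040 in replicate 2.

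The median signal was higher at starts than away from them on the autosomes but not on X. On X the median signal was 87.0 at starts and 92.4 away from them, and it reached 99.6 in intergenic sequence. On the autosomes it was 97.9 at starts and 83.9 away. The spreads overlapped widely, and no difference was tested. Quartiles on X were 68.9 and 119 at starts, and 71.7 and 136.7 away. Those on the autosomes were 72.9 and 170.5 at starts, and 68.3 and 114.4 away. The same order of medians was found in each replicate's own 1563 strongest candidates, with X medians of 42.1 at starts and 44.2 away in replicate 1, and 50.9 and 52.8 in replicate 2. The autosomal medians were 48.4 and 40.1 in replicate 1, and 55.2 and 46.3 in replicate 2. Over all places the median was 91.4 on X and 89.6 on the autosomes, with quartiles of 70.2 and 129.8 on X.

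**Figure D4:**
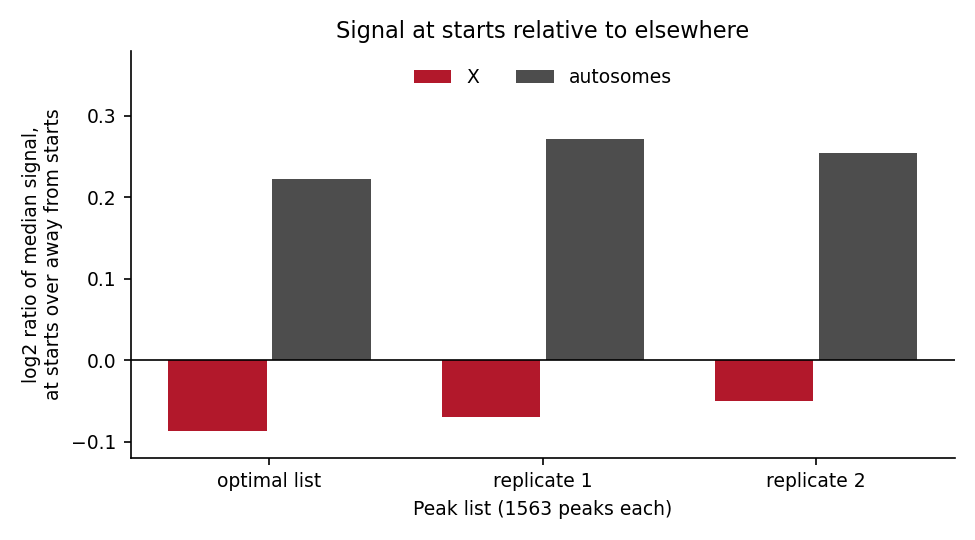
Log2 ratio of the median signal of peaks at protein-coding starts to that of peaks elsewhere (vertical axis), for X (red) and the autosomes (grey), in the optimal list and in the 1563 strongest candidates of each replicate. The X ratios are below 0 and the autosomal ratios above 0 in all 3 lists, and the difference was not tested.

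X held 17.3% of the optimal peaks (95% exact interval 15.4 to 19.2%). X is 17.7% of the length of the 6 chromosomes, and holds 13.7% of the protein-coding genes and 19.04% of the pooled candidates. The density was 15.2 peaks per Mb on X and 15.7 on the autosomes, although X has 154 protein-coding genes per Mb and the autosomes 209. The optimal list kept 6.44% of X candidates and 7.25% of autosomal candidates, against a background of 7.09% over the genome. Among the 1563 strongest candidates, X had 274 in replicate 1 and 270 in replicate 2. The X peaks nearest to the end of the list had signals of 60.42, 60.30 and 60.27, at C02B4.3, rbc-1 and suca-1. The first X candidates left out had 60.23, 60.18 and 60.16.

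X summits stood closer to even along the chromosome than autosomal ones. The middle 50% of X held 128 of 270 peaks (47.4%), 53.5% of X candidates and 52.9% of X protein-coding genes. The middle 50% of an autosome held between 57.3% of its peaks on IV and 71.0% on V. With X cut into 10 equal bins from the left end, the counts ran from 20 peaks in bins 2 and 6 to 37 in bin 9. Relative to genes, bin 10 had the most, with 15.6 peaks per 100 protein-coding genes, and bins 2 and 6 the fewest, with 7.58. These shares are descriptions without a test.

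**Figure D5:**
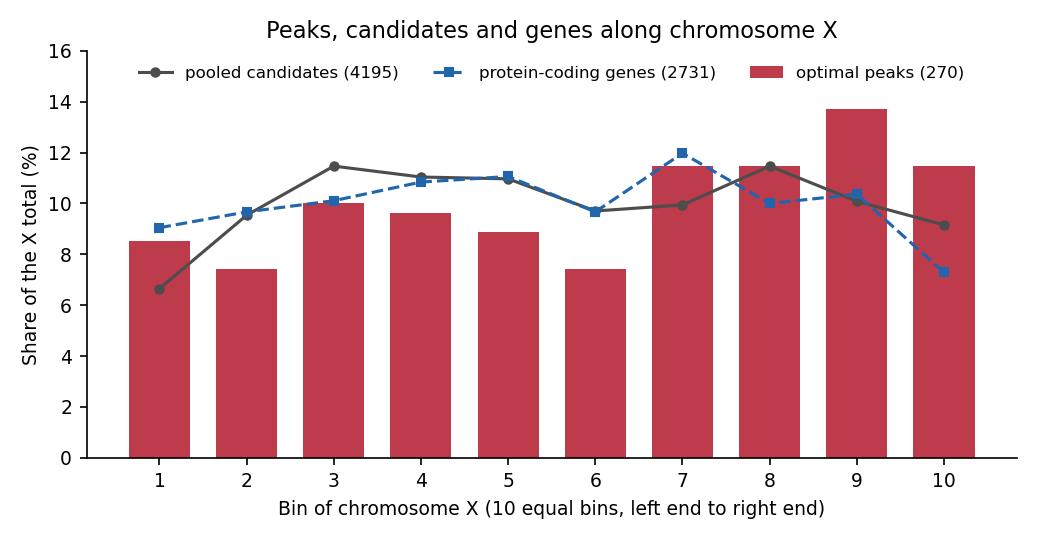
Share of the X total (vertical axis, %) in each of 10 equal bins of chromosome X from the left end, for 270 optimal peaks (bars), 4195 pooled candidates (circles) and 2731 protein-coding genes (squares). Peak shares run from 7.41% to 13.7%, the highest in bin 9, with no rise in the middle of the chromosome.

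The longest stretch of X without a peak was 478 kb, from 3127866 to 3605886, and it held 82 pooled candidates and 77 protein-coding genes. The next were 358 and 342 kb. The longest gaps on the autosomes ran from 389.6 kb on III to 892 kb on V. The median gap between neighbouring summits was 36.2 kb on X and 28.6 kb on the autosomes. By chromosome, the autosomal median ran from 20.9 kb on I to 47.3 kb on V, so X lay within their range. It was longer than on X on IV (38.7 kb) and V, and shorter on I, II and III.

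X summits had a close neighbour less often. Another summit within 5 kb was found for 80 of 270 X peaks (29.6%, 24.2 to 35.5%) and for 528 of 1293 autosomal peaks (40.8%, 38.1 to 43.6%), a difference of -11.2 percentage points (Fisher's exact test, adjusted p = 0.00156). The call was lost with neighbours within 2 kb (-3.42 points, adjusted p = 0.307), in the 781 strongest peaks (-4.26, adjusted p = 0.586), on build ce10 (-6.57, adjusted p = 0.0929) and in replicate 2 alone (-6.18, adjusted p = 0.104), each by the same exact test. By place, 15 of 103 X start peaks (14.6%) had such a neighbour, against 37.2% of autosomal start peaks, while for peaks in introns the shares were 50% on X and 49.7% on the autosomes.

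Chains of summits no more than 5 kb apart left 190 X peaks alone and put 80 into 29 groups. The largest group had 6 summits over 8.79 kb at lin-14 (WBGene00003003, chromosome X, 11465560 to 11485871), which encodes a nuclear protein that sets early larval fates. Its signals, in order along X, were 66.6, 63.5, 110.1, 60.6, 124.6 and 75.8. The first lay upstream, the second at a transcript start and the other 4 in introns. Of the 6, 3 were among the 1563 strongest of both replicates. A separate group held 2 more summits in lin-14 introns, with signals of 77.3 and 92.3, and both were among these strongest.

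The second group had 5 summits over 7.38 kb at R03E9.2 and mdl-1, which encodes a Mad-like transcription factor. Its signals were 63.5, 128.9, 92.4, 113.1 and 101.8, and 4 of the 5 were among the strongest of both replicates. Of the 5 groups with 4 summits, the tightest lay over 1.63 kb downstream of C30E1.4, with signals of 253.3, 81.4, 168.9 and 82.5. The first of these summits was intergenic, and the other 3 lay on genes annotated as noncoding or as pseudogenes. The summits with 253.3 and 81.4 lie in the same deposited interval and overlap the same candidate in each replicate. Summits that share or overlap an interval were counted as separate peaks throughout. The other 4 groups of this size were at rab-14 and nipi-3, which encodes a Tribbles-like kinase, at C34D10.5 and unk-1, at nhr-3 and at sma-9, a Schnurri homologue of the BMP pathway.

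Of 2731 X protein-coding genes, 108 had a peak at a start (3.95%, 95% exact interval 3.26 to 4.75%), against 849 of 17242 autosomal genes (4.92%, 4.61 to 5.26%). Over the genome the share was 4.79%. The difference of -0.969 percentage points did not pass (Fisher's exact test, adjusted p = 0.0531), and it passed with starts within 250 bp (adjusted p = 0.0465) or 1000 bp (0.0376), in the 781 strongest peaks (0.00560) and in replicate 2 alone (0.0107), all by the same exact test. Autosomes ranged from 2.64% on V to 7.23% on III, so X lay within their range.

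Gene lists were counted without a test. Of 27 X nuclear hormone receptor genes 5 were bound, against 4 of 247 on the autosomes. They were nhr-1 (151.8), nhr-40 (103), nhr-35 (68.6), nhr-32 (62.8) and nhr-25 (61.3), the last an Ftz-F1 type receptor needed for moulting. Apart from nhr-1 and nhr-40, these signals lay close to the end of the list. Of 6 X heterochronic genes 2 were bound, puf-9 at 309.6 and lin-14 at 63.5, against 3 of 8 on the autosomes. This count depends on the window too. Peaks outside it were nearest to kin-20 (131.9), alg-1 (72.1) and daf-12 (64.9), and lin-14 had others up to 124.6. Of 2 X ribosomal protein genes rpl-11.2 was bound, against 57 of 79 on the autosomes. Of 29 X cuticle collagen genes col-176 was bound (66.3), against 2 of 131.

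Of the 6 X genes of dosage compensation and sex determination, sdc-2 was bound, with a signal of 94.5 and the summit 398 bp upstream, and 2 of 18 autosomal genes of the list were. SDC-2 is the protein that starts assembly of the dosage compensation complex on X in hermaphrodites. The candidate at its start ranked 744 in replicate 1 and 776 in replicate 2. Of 69 X channel and neurotransmitter receptor genes 0 were bound (exact interval up to 5.21%), against 2 of 137 on the autosomes. Of 34 X neuropeptide genes 0 were bound (up to 10.3%), against 1 of 106. One of the 34, ins-39, had its strong peak (328) 633 bp upstream, outside the 500 bp window, so this count depends on the window. Of 25 X homeobox genes 0 were bound (up to 13.7%), against 3 of 63. Of 7 X muscle genes 0 were bound (up to 41.0%), against 2 of 22. Over all X genes the bound share was 3.95%, and no list was tested against it.

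lsy-2 itself, on X, had no peak nearby. The nearest X summit was 147.7 kb from its start, and no candidate of any of the ce11 lists had its summit within 500 bp. The LIM homeobox gene lim-6, which acts in the left ASE neuron, had its nearest summit 8.22 kb upstream, with a signal of 71.9. That summit lay nearer to unc-1, 1783 bp upstream of its start. The microRNA gene let-7, which times the last larval stage, had its nearest summit 1.81 kb upstream of its annotated start, with a signal of 87.0. That peak lay at the start of the protein-coding gene C05G5.2, 173 bp upstream. It ranked 2339 in replicate 1 and 634 in replicate 2.

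tRNA genes had more peaks on X than on all autosomes together. A summit lay within 200 bp of a tRNA gene for 20 X peaks (7.41%, 4.58 to 11.2%) and 12 autosomal peaks (0.928%, 0.480 to 1.62%), a difference of 6.48 percentage points (Fisher's exact test added after the counts were seen, adjusted p = 4.07e-08). X carries 276 annotated tRNA genes and the autosomes 336. A peak was near 24 of the former (8.70%) and 14 of the latter (4.17%). Signals at the X tRNA genes ran from 61.0 to 198.3, the highest at WBGene00023117, which lies near the start of ZK1193.2 as well. tRNA genes have near-identical copies, and how reads with several matches were placed was not given in the sources used here.

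Of 74 X microRNA genes, mir-56 had a peak within 200 bp, with a signal of 141.3 (1.35%, against 3.21% of 187 autosomal microRNA genes). Of 33 X snoRNA genes, C34E11.20 (67.6) and D2021.6 (103.3) had one (6.06%, against 11.2% of 313 on the autosomes), and the latter lies near the start of the succinate dehydrogenase gene sdha-1. None of 3 X snRNA genes had one, against 12 of 126 on the autosomes. These shares were not tested.

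All 270 X peaks and 1290 of 1293 autosomal peaks overlapped a candidate in both replicates. The optimal list was filtered for reproducibility between these same replicates, so this overlap was built in and is not separate support. A stricter measure asked whether a peak overlapped, by at least 1 bp, one of the 1563 strongest candidates of both replicates. It held for 191 X peaks (70.7%, 64.9 to 76.1%) and 69.8% of autosomal peaks (67.2 to 72.3%), a difference of 0.980 percentage points (Fisher's exact test, adjusted p = 0.846). Another 37 X peaks were among the strongest of replicate 1 alone, 39 of replicate 2 alone and 3 of neither. On X this support was 81.0% in intergenic sequence, 71.1% in introns and 63.1% at starts. On the autosomes it was 69.7%, 64.97% and 72.9%. Across the 270 X peaks, the signals of the replicates had a Spearman correlation of 0.625 (0.684 across 1290 autosomal peaks), a description over regions that share libraries and a list.

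Support followed rank. All of the 90 strongest X peaks were among the strongest candidates of both replicates, 79 of the next 90 (87.8%) and 22 of the weakest 90 (24.4%). The autosomal peaks divided the same way had 99.3%, 84.9% and 25.1%.

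The letters GAGAGA, searched with TCTCTC, occurred in 89 X summit windows (33.0%, 27.4 to 38.9%) and in 29.1% of autosomal ones (26.6 to 31.6%). The difference of 3.88 percentage points did not pass (Fisher's exact test, adjusted p = 0.285), and in the candidates of replicate 1 alone it was 0.840 points. In windows centred 500 bp away, 5% on X and 5.76% on the autosomes held the letters. ACGCAG, searched with CTGCGT, occurred in 42 X windows (15.6%, 11.4 to 20.4%) and in 19.3% of autosomal ones (17.2 to 21.6%), and the difference of -3.78 points did not pass either (Fisher's exact test, adjusted p = 0.271). In the candidates of replicate 2 alone it was -6.40 points and passed (adjusted p = 0.0201 by the same exact test). The flanks had 2.22% and 2.51%. Summit windows had a mean G+C share of 49.3% on X and 47.4% on the autosomes, and their flanks 35.4% and 36.7%, so summits and flanks differ in base composition.

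By place the GAGAGA shares ran in opposite order on X and elsewhere, without a test. On X they were 39.8% at starts, 30.5% in intergenic sequence and 23.7% in introns. On the autosomes they were 21.8%, 38.3% and 44.1%. Of the 2 other sets of letters searched, CGTCTC (with GAGACG) was found in 17.0% of X and 21.6% of autosomal windows (Fisher's exact test, adjusted p = 0.0995). GCGCAG (with CTGCGC), which the MEX core contains, was found in 10.4% and 5.49% (adjusted p = 0.00684 by the same exact test), and both were among the 5 tests added. Its 28 X and 71 autosomal windows include the 11 and the 1 with GCGCAGGG, so this test is not separate from that of GCGCAGGG. GCGCAG outside those windows was not tested.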

How the data were processed

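The authors deposited narrowPeak lists of 2 biological replicates, each on builds ce11 and ce10. Per the deposited text listings, candidate lists come from immunoprecipitation and control alignments, and the optimal list from a threshold on the irreproducible discovery rate. The signal values and the -log10 q values are the authors', as deposited, and q sat at 3.53 for every optimal peak. The aligner, caller and threshold are not given in the sources used here.

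Summits were placed on WBcel235 (the ce11 assembly) with Ensembl 115 genes, 1-based. A summit within 500 bp of a protein-coding transcript start counted as at that start. The rest went, by the first that held the summit, to a coding exon, another exon, an intron, a noncoding gene or pseudogene (piRNA genes left out) or intergenic sequence. let-7, unnamed there, was matched to the RefSeq gene table by identical coordinates. Shares on X and autosomes were compared with two-sided Fisher's exact tests (SciPy 1.17.1), Benjamini-Hochberg adjusted over 8 planned and, separately, 5 added tests, at 0.05. Intervals are exact (Clopper-Pearson, 95%) and cover counting error only.

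Named genes were those of the 25 X peaks of highest signal, lsy-2, lim-6, xol-1, sdc-2, lin-14 and let-7, the 3 peaks farthest from starts, the 3 groups with most summits, bound X members of 9 gene lists, and tRNA, microRNA, snoRNA and snRNA genes within 200 bp of a summit. T24D8.6, col-185 and R04E5.9, their neighbours, mpc-1, the 4 other groups of 4 summits and the genes beside the end of the list were named after their values were seen. So were unc-1 and C05G5.2, the protein-coding genes nearest to the lim-6 and let-7 summits. The same holds for dnj-14 and ile-2, which share start peaks, and for receptor and heterochronic genes with peaks only outside the 500 bp window. The members, lists and letters were chosen with earlier results of these data known. Procedures were tested on simulated data.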

Additional observations from a re-analysis of the deposited data

Results flagged for a closer look

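The relation of signal to transcript starts differed in sign between X and the autosomes in both replicates. The log2 ratio of the median signal at starts to that away from starts was -0.069 on X and 0.27 on the autosomes in replicate 1. In replicate 2 it was -0.051 on X and 0.25 on the autosomes. The difference between X and the autosomes was not tested, and the 99 and 96 X start peaks behind the X medians are regions of one genome, not replicates.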

How the results depend on the processing

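Of 53 alternative values, 41 kept their direction and their side of the threshold, among them all for peaks at starts, in intergenic sequence, for GAGAGA, GCGCAGGG, tRNA genes, shared starts and the X share of peaks. In percentage points of X minus autosomes, the neighbour difference of -11.2 was no longer called in the 781 strongest peaks (-4.26), within 2 kb (-3.42) or on ce10 (-6.57), and either replicate alone gave -8.47 to -6.18. The difference in bound genes of -0.969 was called within 250 bp (-0.782), within 1000 bp (-1.16) and in those 781 peaks (-1.01), and single replicates gave -1.23 to -0.963. ACGCAG gave -6.40 to -5.27 with single replicates, called with replicate 2 alone, and GAGAGA, never called, gave 0.840 to 3.73. The uncalled intron difference changed sign within 250 bp (-1.01) and between single replicates (-1.47 to 1.26), as did support in both replicates in those 781 peaks (-0.445). The cause was not tested. Alternatives for GCGCAGGG, tRNA genes and shared starts were chosen after seeing the data. Depth is unknown, so what it limits could not be measured. No paired analysis was possible because there is 1 group.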
